A study of Rattus norvegicus with 9 samples.

Results

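Tongues of rats that drank the carcinogen 4NQO and then received IL-1Ra were compared with tongues of untreated rats on microarrays. The comparison takes 6 of the 9 arrays in the series, namely the 3 whose treatment label reads 4NQO+IL-1Ra (the IL-1Ra group) and the 3 labelled as normal condition. The 3 arrays of the 4NQO group, which had the carcinogen without the antagonist, are set beside them where they show how the IL-1Ra group differs. All probe sets except the 57 Affymetrix controls belong to the comparison, 31042 in all, and they name 14217 genes.

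All rats were male Sprague Dawley animals, of an age that is not stated in the sources at hand. By the study's methods, the IL-1Ra rats had 4NQO at 0.002% in their drinking water for 14 weeks, after which recombinant rat IL-1Ra was injected weekly beneath the surface of the tongue's middle portion, and they were killed at week 22. The 4NQO rats received saline injections in its place, while normal rats drank distilled water and no injection is described for them. IL-1Ra and normal tongues thus differ in carcinogen, injection, anaesthesia and antagonist together, and the share of each cannot be told apart. The labels give a somewhat different schedule, with 4NQO for 22 weeks and killing from week 14 to week 22 once lesions were visible. For the tongues on the arrays, no lesion stage is stated in the sources at hand. The methods describe a longitudinal piece of tongue, so surface epithelium, connective tissue and muscle entered each sample together.

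4NQO (4-nitroquinoline 1-oxide) forms bulky DNA adducts and, given in drinking water, leads rodent tongue epithelium through dysplasia to squamous cell carcinoma. IL-1 alpha and IL-1 beta signal through the IL-1 receptor and the adaptor MyD88 to NF-kappaB, and IL-1Ra occupies the same receptor without signalling. Beneath the stratified, keratinised epithelium of the tongue lies skeletal muscle, in which slow, oxidative fibres burn fatty acids and fast fibres rely more on glycolysis.

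In tongues of the IL-1Ra group 9 of 33 replication and S phase genes rose, as did the tumour suppressor gene Cdkn2a, the glucose transporter gene Slc2a1, the amino acid synthesis genes Asns and Psat1, and 5 of 31 chaperone genes. Falls were found for 6 of 17 slow muscle fibre genes, 6 of 23 lipid handling genes and 4 of 23 fatty acid oxidation genes. At an adjusted p under 0.05 (limma, Benjamini-Hochberg over all probe sets), 581 probe sets differed, of which 413 were higher and 168 lower in the IL-1Ra group. With each gene represented by its brightest probe set (highest mean over the 9 arrays), 313 genes were called, 236 higher and 77 lower, which is 1.66% and 0.542% of all genes. Another 129 genes were called by a different probe set but not by their brightest, and counts of genes leave these out unless stated. The median difference over all genes was 0.04 log2, with 56.2% of genes above 0. Of the 581 probe sets, 96 differed at least 2-fold, 54 of them higher and 42 lower.

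The arrays of the IL-1Ra and normal groups did not overlap for any of the 313 called genes. These genes were selected on the same values, so their separation, here and below, adds no support to the calls. Over all genes, the groups did not overlap for 40.3%. Most calls lay close to the threshold, since the lowest adjusted p was 0.0196 and 571 of the 581 probe sets had one above 0.03. With any 1 normal array left out, 0 probe sets passed in the limma fit, although 4790 to 5797 had an unadjusted p under 0.05. With 1 IL-1Ra array left out, 1 to 6 passed. Named genes are therefore given with their value on each array, and each call below is one that holds with all 9 arrays in the fit. For some lists the count at an unadjusted p under 0.05 is given too. Over all genes, 3613 of 14217 had one in the fit with 1 probe set per gene, and list counts are to be read beside that share.

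Markers of tongue were bright on all arrays. The muscle creatine kinase gene Ckm lay between 13.33 and 13.57 log2 intensity and the mucosal keratin gene Krt13 between 13.51 and 13.64 on the 6 arrays compared. The 3′ minus 5′ difference of the beta-actin control probe sets, a measure of RNA integrity, was 0.80 ± 0.06 log2 on normal and 1.13 ± 0.15 on IL-1Ra arrays (SD, n = 3 each, exact permutation p = 0.1, the smallest that 3 against 3 allows). The hexokinase controls gave 1.5 ± 0.03 and 1.98 ± 0.20 in the same order (exact permutation p = 0.1), and GAPDH 0.27 in both groups (exact permutation p = 0.9). The beta-actin and hexokinase ranges did not overlap, and the part of RNA integrity in the results was not tested. Because each sample is a mixture of cells, fewer cells of a type and less RNA per cell cannot be told apart.

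The promoters of 3 genes with called differences are shown because each holds, just before its start site, a short motif of a factor known for its role in that gene group. Each line gives the 250 bases upstream of the start (RefSeq, GRCr8), written 5′ to 3′ on the gene's strand, with the motif in capitals.
Mcm2, chr4:122918095-122918344, minus strand: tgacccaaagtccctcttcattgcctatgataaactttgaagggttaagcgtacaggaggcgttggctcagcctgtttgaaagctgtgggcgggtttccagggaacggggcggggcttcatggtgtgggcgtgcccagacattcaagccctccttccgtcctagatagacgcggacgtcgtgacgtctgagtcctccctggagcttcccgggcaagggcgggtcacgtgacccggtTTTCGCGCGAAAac
Myoz2, chr2:213852779-213853028, minus strand: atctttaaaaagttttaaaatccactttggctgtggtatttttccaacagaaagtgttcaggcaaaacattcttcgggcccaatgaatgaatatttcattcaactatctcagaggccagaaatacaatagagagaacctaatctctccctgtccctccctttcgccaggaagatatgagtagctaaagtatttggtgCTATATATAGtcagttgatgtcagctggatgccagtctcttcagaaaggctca
Hsph1, chr12:10427118-10427367, plus strand: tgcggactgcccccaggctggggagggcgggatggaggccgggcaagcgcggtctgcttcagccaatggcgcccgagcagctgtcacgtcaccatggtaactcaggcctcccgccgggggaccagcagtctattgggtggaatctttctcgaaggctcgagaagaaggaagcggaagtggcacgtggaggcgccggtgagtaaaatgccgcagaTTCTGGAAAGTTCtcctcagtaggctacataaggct

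In Mcm2, a helicase gene of DNA replication, the capitals mark a pair of overlapping E2F octamers on opposite strands, the nearer of which ends 3 bases before the start. E2F factors drive genes of S phase entry. The octamers searched were TTTCGCGC, TTTCCCGC, TTTGGCGC and TTTGCCGC on both strands, and 1.73% of 33469 rat promoters held one. Of 33 measured genes of replication, 25 had a promoter in the table and 8 of these held an octamer, while among the 9 called genes 7 had a promoter and Mcm2 alone held one.

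In Myoz2, a Z-disc gene of slow fibres, the capitals mark a match to the MEF2 motif, 44 bases before the start, whose letters are also those of a TATA-like stretch. MEF2 was found in 2.96% of all promoters and in 3 of 14 promoters of the slow fibre list, those of Myoz2, Casq2 and Hspb7. In Hsph1, a large heat shock protein gene, the capitals mark a heat shock element 24 bases before the start. This element, a run of alternating GAA and TTC units, was found in 0.663% of promoters and in those of Hspd1, Hspe1 and Hsph1 among 28 chaperone genes, of which Hsph1 alone was called. The amino acid response element TGATGNAA, held by 3.4% of promoters, was in 6 of 25 promoters of the amino acid stress list and in neither called gene, Asns or Psat1. These motifs were chosen after the data were seen, and a match is a description of letters, not of binding.

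Cdkn2a, which encodes the cell cycle inhibitor p16 and the p53 stabiliser ARF from overlapping frames, showed the largest rise among named genes. Its probe set read 4.64, 4.32 and 3.98 log2 intensity on the normal arrays and 7.61, 7.28 and 8.74 on the IL-1Ra arrays. The groups lay far apart, and the difference of 3.56 ± 0.35 log2 (SE) was an 11.8-fold rise (adjusted p = 0.0196). On the 4NQO arrays Cdkn2a read 7.85, 7.07 and 7.78, within the range of the IL-1Ra arrays or just below it. Of the 14 measured CDK inhibitor and senescence genes it was the sole one called. Cdkn2b, the neighbouring p15 gene, differed by 0.65 log2 (adjusted p = 0.0615) and the p53 target Cdkn1a by 0.40 (adjusted p = 0.13).

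**Figure D1:**
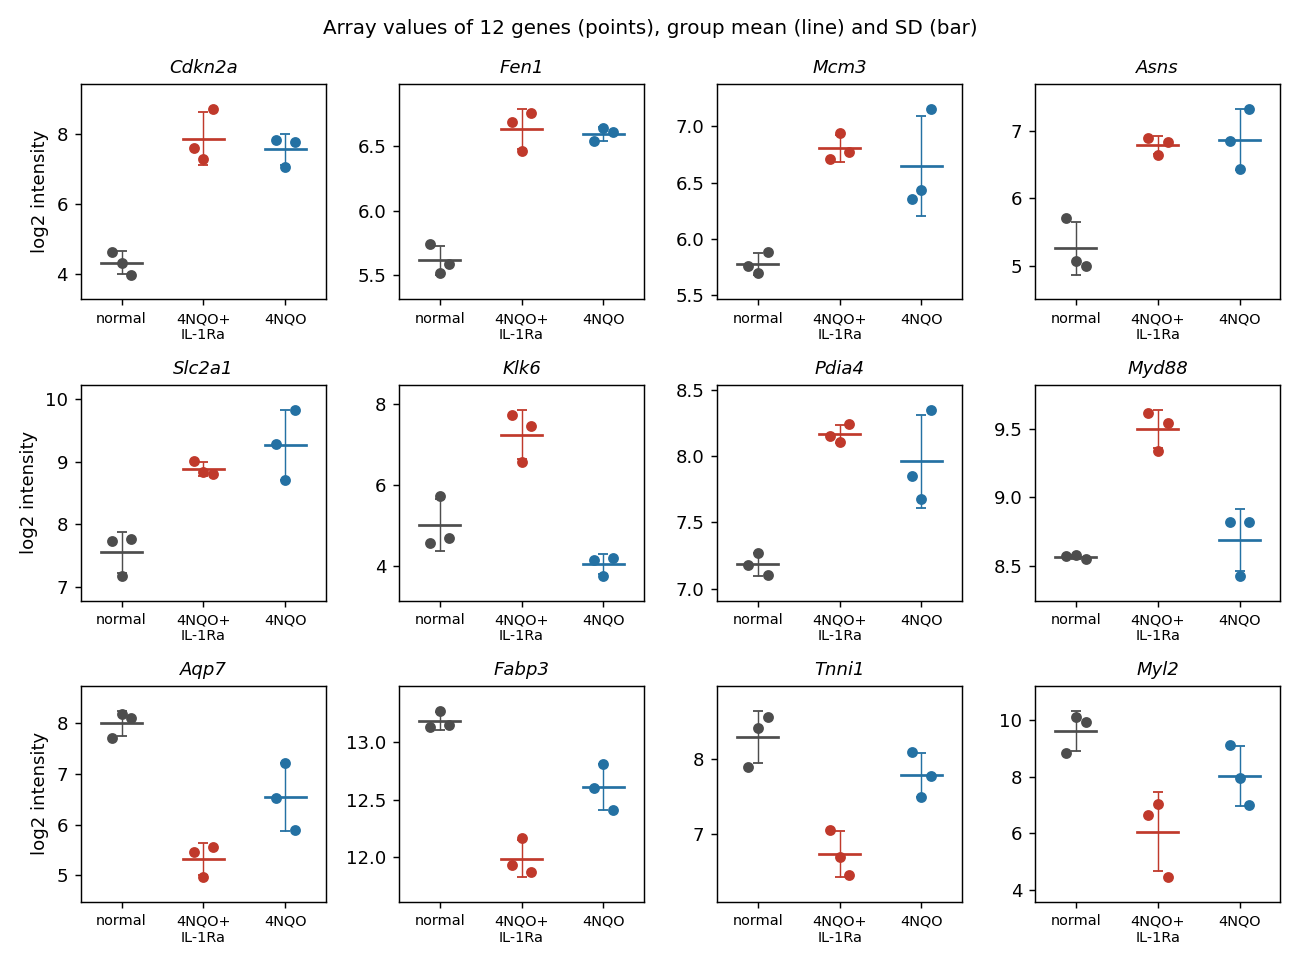
Log2 intensity (vertical axis) of 12 named genes on each of the 9 arrays, with normal, IL-1Ra and 4NQO arrays as points, the group mean as a line and the SD as a bar. In every panel the 3 IL-1Ra points lie apart from the 3 normal points, above them for Cdkn2a, Fen1, Mcm3, Asns, Slc2a1, Klk6, Pdia4 and Myd88, and below them for Aqp7, Fabp3, Tnni1 and Myl2.

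Genes that license origins and copy DNA gave more calls than any other of the 49 gene lists. Of 33 measured members of the replication and S phase list, 9 rose and 0 fell, with a median of 0.64 log2 and 31 members above 0, against 0.04 over all genes. Fen1, the flap endonuclease that finishes Okazaki fragments, read 5.74, 5.52 and 5.59 on normal arrays and 6.69, 6.46 and 6.76 on IL-1Ra arrays. No array of one group reached the other, and the rise was 1.02 ± 0.11 log2 (SE) or 2.03-fold (adjusted p = 0.0196).

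The helicase genes of the MCM complex moved the same way. Mcm3 read 5.76, 5.69 and 5.88 on normal arrays and 6.71, 6.94 and 6.77 on IL-1Ra arrays, a rise of 2.05-fold (adjusted p = 0.0428). Mcm2, whose promoter is shown above, read 6.95, 6.77 and 6.47 against 7.61, 7.79 and 7.58, a rise of 1.91-fold (adjusted p = 0.044). In both genes the lowest IL-1Ra array lay above the highest normal array. Mcm4 rose by 0.93 log2 (adjusted p = 0.0498), while Mcm6 differed by 1.29 log2 with an adjusted p of 0.0573.

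Rises in other steps of S phase were smaller. The clamp loader genes Rfc3 and Rfc4 rose by 0.78 and 0.70 log2 and the ribonucleotide reductase gene Rrm1 by 0.72 (adjusted p = 0.044 for each). Ccne1, which encodes the cyclin E that starts S phase, rose by 0.86 log2 (adjusted p = 0.0449).

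Ccnd1, which encodes the cyclin D1 that carries growth signals into the cycle, read 8.67, 8.41 and 8.62 on normal arrays and 9.48, 9.51 and 9.77 on IL-1Ra arrays. The groups did not overlap and the rise was 2.02-fold (adjusted p = 0.0466). Its other probe sets gave 1.02 and 1.08 log2 (adjusted p = 0.0448 and 0.0362).

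Genes of mitosis stood out less than those of S phase. Of 28 measured, limma called 0, with 2 at an unadjusted p under 0.05, and their median was 0.32 log2 with 26 above 0. Mki67, the proliferation marker, read 7.25, 6.64 and 7.37 on normal arrays and 7.34, 7.92 and 7.30 on IL-1Ra arrays, and the groups overlapped (0.43 log2, adjusted p = 0.471). Basal keratinocyte and anchoring genes, which mark the dividing layer of the epithelium, had a median of 0.54 log2. The summed intensity of their 19 measured genes ran from 14140 to 20868 on normal and from 24623 to 29240 on IL-1Ra arrays, and their part in the rise of replication genes was not tested.

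In the 4NQO group the replication median against the same normal arrays was 0.61 log2 with 16 of 33 genes up, where 12.4% of all genes were called higher and 5.08% lower in 4NQO against normal. Both comparisons use the same normal arrays, so their values are side by side and not independent.

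**Figure D2:**
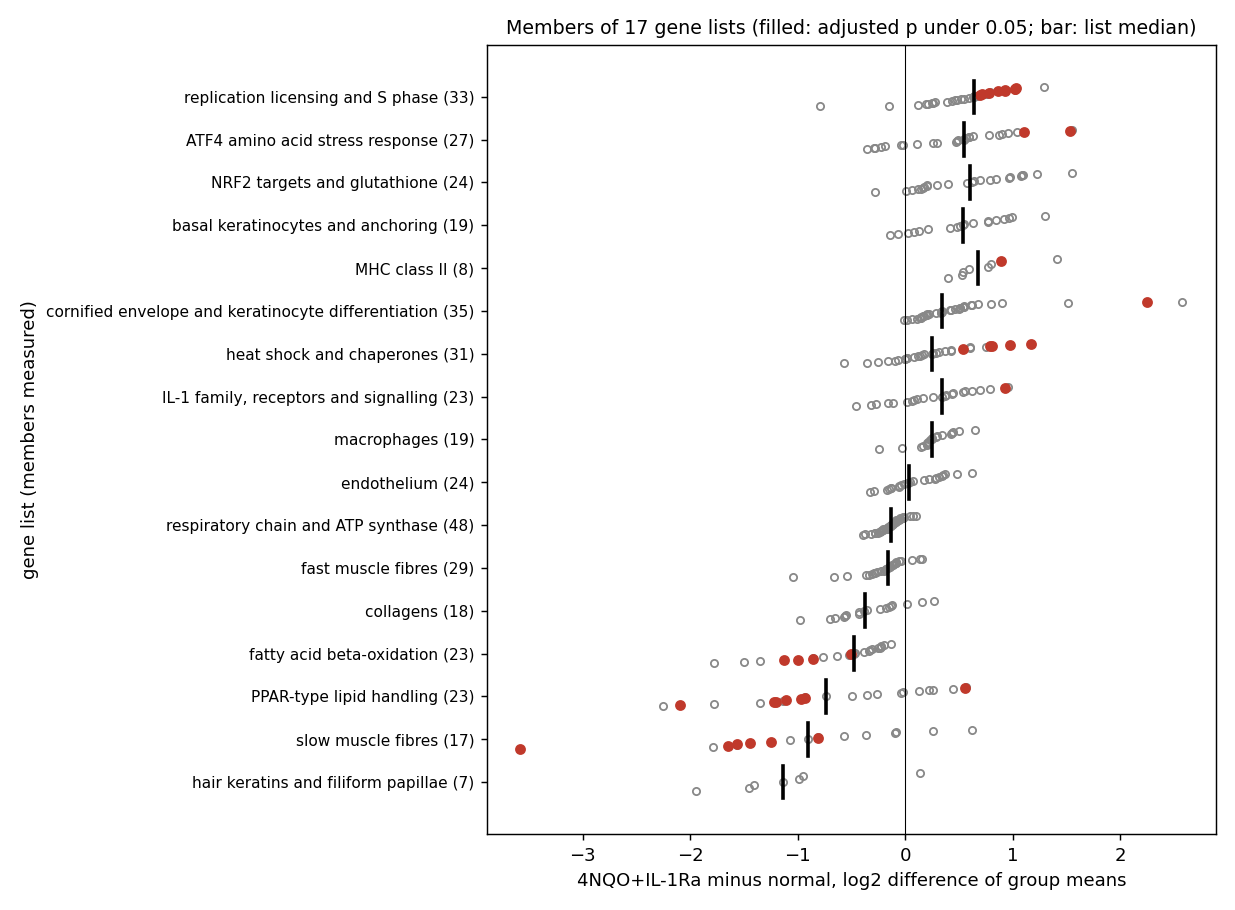
Log2 difference, IL-1Ra minus normal, of each measured member of 17 gene lists (horizontal axis; 1 point a gene, filled where the adjusted p was under 0.05), with a bar at the list's median. Filled points gather above 0 in the replication list and below 0 in the slow muscle fibre, lipid handling and beta-oxidation lists.

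Genes for amino acid and glucose supply were among the largest rises. Asns, the asparagine synthetase gene and a target of the stress factor ATF4, read 5.71, 5.08 and 5.0 on normal arrays and 6.90, 6.64 and 6.84 on IL-1Ra arrays. It rose 2.89-fold (adjusted p = 0.0344) with no overlap between the groups. Psat1, of serine synthesis, read 8.09, 8.35 and 8.32 against 9.64, 9.11 and 9.35 and rose 2.16-fold (adjusted p = 0.044). These were the 2 of 27 amino acid stress genes that passed by their brightest probe set, and the list had a median of 0.55 log2 with 20 members above 0. Gpt2, an alanine transaminase gene of the list, rose by 0.90 log2 on one probe set (adjusted p = 0.0428) and differed by 0.49 on its brightest (adjusted p = 0.218). The corresponding median in 4NQO against normal was 0.60 log2.

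Slc2a1, the GLUT1 glucose transporter gene, read 7.73, 7.18 and 7.76 on normal arrays and 9.02, 8.83 and 8.81 on IL-1Ra arrays. All IL-1Ra arrays lay above all normal ones, and the rise was 2.51-fold (adjusted p = 0.044). Hk2 and Pfkl, which encode a hexokinase and a phosphofructokinase of early glycolysis, rose by 0.85 and 0.52 log2 (adjusted p = 0.0473 for each). The remaining 23 of 26 genes of glucose uptake and glycolysis did not pass, and the list's median was 0.05 log2, close to that over all genes.

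Of 31 chaperone genes 5 rose and 0 fell, with a median of 0.25 log2. Pdia4, a disulfide isomerase of the endoplasmic reticulum, read 7.18, 7.27 and 7.10 on normal arrays and 8.15, 8.11 and 8.24 on IL-1Ra arrays, a rise of 1.97-fold (adjusted p = 0.0362). The arrays of each group lay close together, and the gap between the groups was far wider. Hsph1, whose promoter is shown above, read 8.43, 8.46 and 8.27 against 9.31, 9.04 and 9.26 and rose 1.76-fold (adjusted p = 0.044).

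Its relative Hspa4l read 6.31, 5.75 and 5.78 on normal arrays and 6.73, 7.32 and 7.29 on IL-1Ra arrays, a rise of 2.25-fold (adjusted p = 0.044). The HSP40 gene Dnajb1 and the HSP90 partner gene Fkbp4 rose by 0.79 and 0.54 log2 (adjusted p = 0.0492 and 0.044). The HSP90 gene Hsp90ab1 rose by 0.57 log2 on one probe set (adjusted p = 0.044) and differed by 0.25 on its brightest (adjusted p = 0.226).

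Few detoxifying genes were called. Mgst2, a membrane glutathione transferase gene, read 8.40, 8.16 and 8.44 on normal arrays and 9.84, 9.10 and 9.68 on IL-1Ra arrays, without overlap, and rose 2.31-fold (adjusted p = 0.044). Gsta4, whose enzyme conjugates products of lipid peroxidation, rose by 1.03 log2 (adjusted p = 0.0498). These were 2 of 20 glutathione transferase genes, with a list median of 0.26 log2.

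Targets of the oxidative stress factor NRF2 had a median of 0.60 log2, and 23 of 24 lay above 0, yet limma called 0 of them. At an unadjusted p under 0.05 there were 9, where 3613 of 14217 genes had one in the fit with 1 probe set per gene. Nfe2l2, the gene of NRF2 itself, differed by 0.58 log2 (adjusted p = 0.0532), Blvrb by 0.64 (adjusted p = 0.0548) and Srxn1 by 1.08 (adjusted p = 0.0696). In 4NQO against normal the median of the list was 0.44 log2. The antioxidant response element TGACNNNGC was in 4 of 22 promoters of the list, against 10.1% of all promoters.

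Among genes of p53 and DNA damage, 1 rose and 1 fell of 32 measured, with a median of 0.20 log2. The nuclease gene Aen rose by 0.61 log2 (adjusted p = 0.0454), and the AKT inhibitor gene Phlda3 fell by 0.64 (adjusted p = 0.0434). Mdm2, whose protein degrades p53, differed by 0.33 log2 on its brightest probe set (adjusted p = 0.121) and rose by 0.63 on another (adjusted p = 0.0344).

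The falls were led by genes of muscle and fat metabolism. Myl2, the regulatory light chain gene of slow and cardiac myosin, read 8.83, 10.13 and 9.95 on normal arrays and 6.66, 7.05 and 4.45 on IL-1Ra arrays. The groups did not overlap but the IL-1Ra arrays were spread widely, and the fall was 12-fold (3.58 log2 with an SE of 0.70, adjusted p = 0.044). The other probe set for Myl2 gave -0.57 log2 (adjusted p = 0.0581), so the size of the fall differs between probe sets. Without IL-1Ra replicate 3, which read lowest, the difference on the brighter probe set was -2.78 log2. On the 4NQO arrays Myl2 read 9.13, 7.97 and 7.0, between the other groups in part.

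Troponin genes of slow fibres, whose proteins switch contraction on with calcium, were lower too. Tnni1 read 7.90, 8.42 and 8.57 on normal arrays and 7.06, 6.69 and 6.45 on IL-1Ra arrays, a fall of 2.96-fold (adjusted p = 0.0344). Its other probe set gave -1.40 log2 (adjusted p = 0.0344). Tnnc1 read 6.65, 6.79 and 6.57 against 5.26, 5.02 and 4.80, a fall of 3.14-fold (adjusted p = 0.0405), again without overlap.

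Proteins that anchor and sense stretch at the Z-disc are encoded by Csrp3 and Myoz2. Csrp3 read 10.27, 11.35 and 10.85 on normal arrays and 9.37, 9.57 and 9.20 on IL-1Ra arrays, a fall of 2.71-fold (adjusted p = 0.044). Myoz2 read 10.29, 10.90 and 11.09 against 9.76, 9.80 and 8.96, a fall of 2.38-fold (adjusted p = 0.0473). In both genes the groups were separate, by the narrower margin in Myoz2.

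Of the 17 measured slow fibre genes 6 fell and 0 rose, with a median of -0.90 log2 and 15 below 0, against 43.8% of all genes below 0. The sixth was Atp2a2, the slow fibre calcium pump gene, whose brightest probe set fell by 0.81 log2 (adjusted p = 0.0405). Other probe sets for Atp2a2 disagreed, with 0.55 and 0.29 log2 above normal (adjusted p = 0.119 and 0.145) and -0.44 and -0.39 below it (adjusted p = 0.258 and 0.179), so that its direction is uncertain. Per array, the list's median relative to the normal mean was -0.59, -0.88 and -1.38 log2 in the IL-1Ra group and between -0.10 and 0.12 in the normal group.

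Of 29 measured fast fibre genes limma called 0, with 2 at an unadjusted p under 0.05, and their median was -0.16 log2. Their summed intensity ran from 149255 to 167469 on normal arrays and from 127933 to 148614 on IL-1Ra arrays, a difference in the same direction without overlap. The fast myosin gene Myh1 read 11.38, 11.25 and 11.48 on normal arrays and 11.70, 11.44 and 11.45 on IL-1Ra arrays, and its groups overlapped (0.16 log2, adjusted p = 0.552). Myh2, the myosin gene of oxidative fast fibres, differed by -1.04 log2 (adjusted p = 0.0614). The part of total muscle content in the slow fibre falls was not tested.

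**Figure D3:**
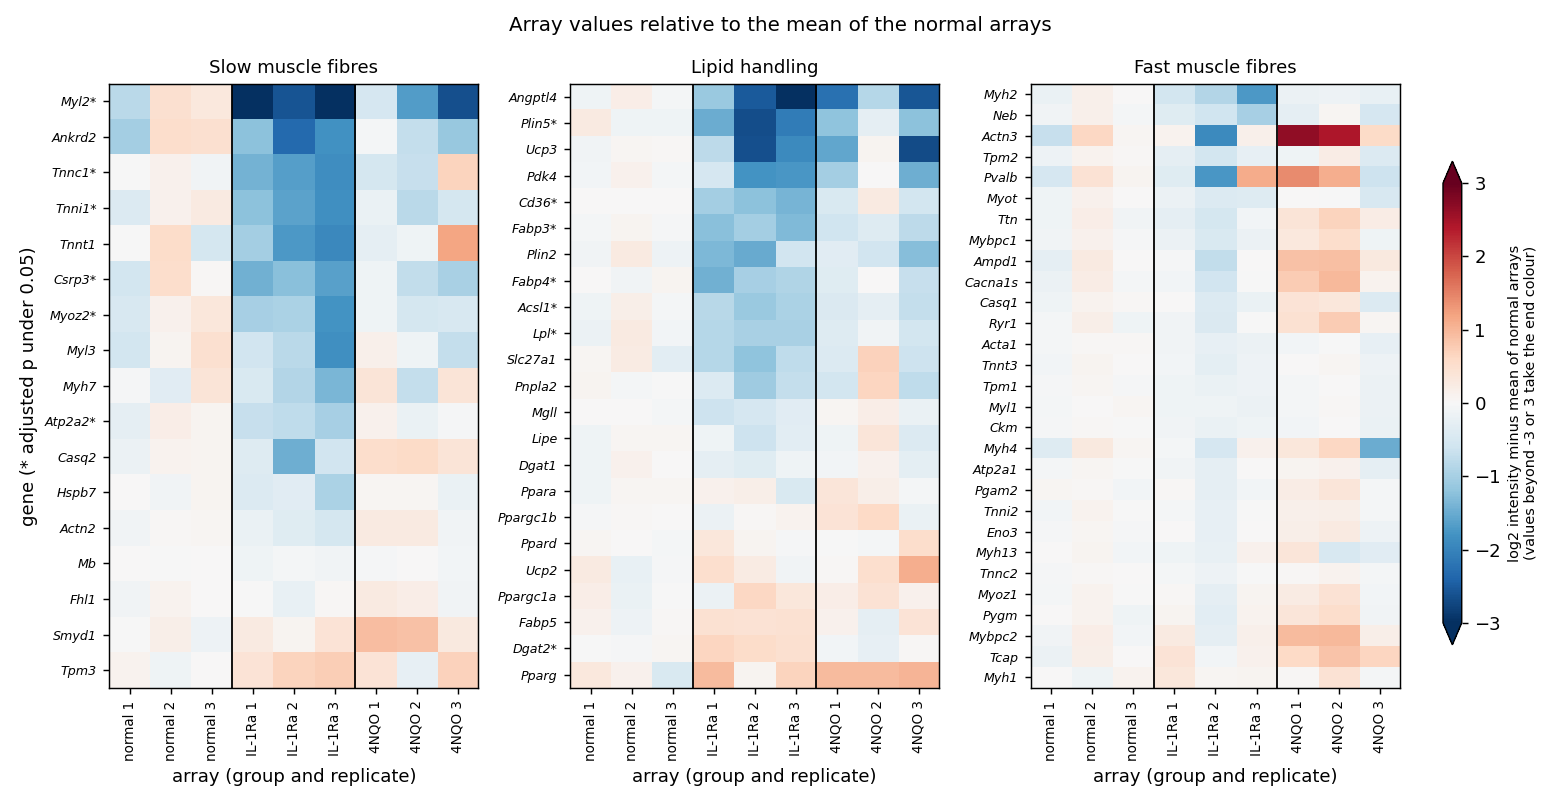
Log2 intensity minus the mean of the normal arrays (colour; values beyond -3 or 3 take the end colour) for genes of slow muscle fibres, lipid handling and fast muscle fibres (rows; a star marks adjusted p under 0.05) on the 9 arrays (columns). The 3 IL-1Ra columns are blue in the upper rows of the slow fibre and lipid panels, and the fast fibre panel is pale in most rows.

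Genes of fatty acid uptake, storage and transport were among the falls. Of 23 measured genes of PPAR-type lipid handling 6 fell and 1 rose, with a median of -0.74 log2. Plin5, the lipid droplet protein gene of oxidative muscle, read 9.83, 9.45 and 9.44 on normal arrays and 8.07, 6.90 and 7.47 on IL-1Ra arrays, a fall of 4.27-fold (adjusted p = 0.0344). Fabp3, the muscle fatty acid binding protein gene, read 13.13, 13.27 and 13.15 against 11.93, 12.17 and 11.87, a fall of 2.29-fold (1.20 log2 with an SE of 0.13, adjusted p = 0.0196). Both groups were tight for Fabp3 and clearly apart.

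Cd36, the fatty acid translocase gene, read 10.25, 10.26 and 10.25 on normal arrays and 9.24, 9.01 and 8.85 on IL-1Ra arrays. Normal arrays were almost equal and all IL-1Ra arrays lay below them, a fall of 2.33-fold (adjusted p = 0.0365). The acyl-CoA synthetase gene Acsl1 fell by 0.97 log2 (adjusted p = 0.0344), lipoprotein lipase Lpl by 0.93 (adjusted p = 0.0362) and the binding protein gene Fabp4 by 1.11 (adjusted p = 0.0376).

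The exception was Dgat2, a triglyceride synthesis gene, which rose by 0.56 log2 (adjusted p = 0.044). Angptl4, an inhibitor of lipoprotein lipase and a PPAR target, differed by -2.25 log2 (adjusted p = 0.0561). Ucp3, a mitochondrial carrier gene of muscle, read 10.26, 10.42 and 10.40 on normal arrays and 9.58, 7.72 and 8.44 on IL-1Ra arrays, apart from each other but with a wide spread (adjusted p = 0.133).

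Aqp7, the channel gene through which glycerol crosses membranes of fat and muscle cells, fell most among genes with the lowest adjusted p. It read 7.71, 8.17 and 8.09 on normal arrays and 5.45, 4.97 and 5.56 on IL-1Ra arrays, a fall of 6.33-fold (2.66 log2 with an SE of 0.30, adjusted p = 0.0196). Fabp4 and Lpl are also adipocyte genes and were the 2 of 14 adipocyte genes called. The adipocyte markers Adipoq and Plin1 overlapped between groups and differed by 0.28 and 0.78 log2 (adjusted p = 0.836 and 0.467). The summed intensity of the 14 genes ran from 12602 to 16186 on normal and from 6904 to 10485 on IL-1Ra arrays. Bright genes such as Car3 and Lpl (12.30 and 12.25 log2 on normal arrays) weigh most in that sum. The list's median difference was 0.03 log2, with 7 genes above 0 and 7 below, and the part of fat cells was not tested.

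All 23 measured genes of fatty acid beta-oxidation lay below 0, with a median of -0.48 log2, and 4 of them fell. Etfdh and Etfa, which pass electrons from acyl-CoA dehydrogenases to the respiratory chain, fell by 1.00 and 0.50 log2 (adjusted p = 0.0354 and 0.0475). The thioesterase gene Acot2 fell by 1.13 log2 (adjusted p = 0.044) and the isomerase gene Eci1 by 0.86 (adjusted p = 0.0478). The medium-chain dehydrogenase gene Acadm read 12.16, 12.43 and 12.17 on normal arrays and 11.75, 11.73 and 11.87 on IL-1Ra arrays (adjusted p = 0.112), separate but by a smaller step.

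Respiratory chain and ATP synthase genes differed less, with a median of -0.13 log2 over 48 measured and 45 below 0. Limma called 0 of them, with 7 at an unadjusted p under 0.05. Nudt7, of peroxisomal coenzyme A breakdown, fell by 1.73 log2 (adjusted p = 0.0344), and Slc25a34, of the mitochondrial carrier family, by 1.75 (adjusted p = 0.044). Chrna1, the muscle acetylcholine receptor subunit gene, read 7.27, 7.14 and 7.42 on normal arrays and 6.60, 6.65 and 6.39 on IL-1Ra arrays, and fell by 0.73 log2 (adjusted p = 0.0365).

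Several muscle and lipid genes were also lower in the IL-1Ra than in the 4NQO group, a comparison in which 1.91% of genes were called higher and 0.753% lower. Of the 17 slow fibre genes 5 were called lower there. Tnni1 read 8.1, 7.5 and 7.77 on the 4NQO arrays, all above the IL-1Ra arrays (-1.06 log2 in IL-1Ra against 4NQO, adjusted p = 0.0419). Tnnc1 read 6.15, 5.99 and 7.34 on 4NQO arrays (-1.47 log2, adjusted p = 0.0373).

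Cd36 read 9.80, 10.53 and 9.69 on 4NQO arrays (-0.97 log2 in IL-1Ra against 4NQO, adjusted p = 0.04), Fabp3 12.60, 12.81 and 12.41 (-0.62 log2, adjusted p = 0.0441) and Chrna1 7.07, 7.16 and 7.32 (-0.64 log2, adjusted p = 0.0296). In each of these genes all 4NQO arrays lay above all IL-1Ra arrays. The genes shown were called in both comparisons, which share the IL-1Ra arrays, so the separation adds no independent support. Against normal, the slow fibre median of the 4NQO group was -0.03 log2, with 1 gene up and 0 down. That of lipid handling was -0.11, with 1 gene up and 2 down. Some of the falls were also present there, with -0.58 log2 for Fabp3 (adjusted p = 0.0209) and -1.44 for Aqp7 (adjusted p = 0.0151). In IL-1Ra against 4NQO, Myl2, Csrp3, Myoz2, Plin5 and Aqp7 did not pass (adjusted p = 0.163, 0.142, 0.11, 0.0831 and 0.0659).

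**Figure D4:**
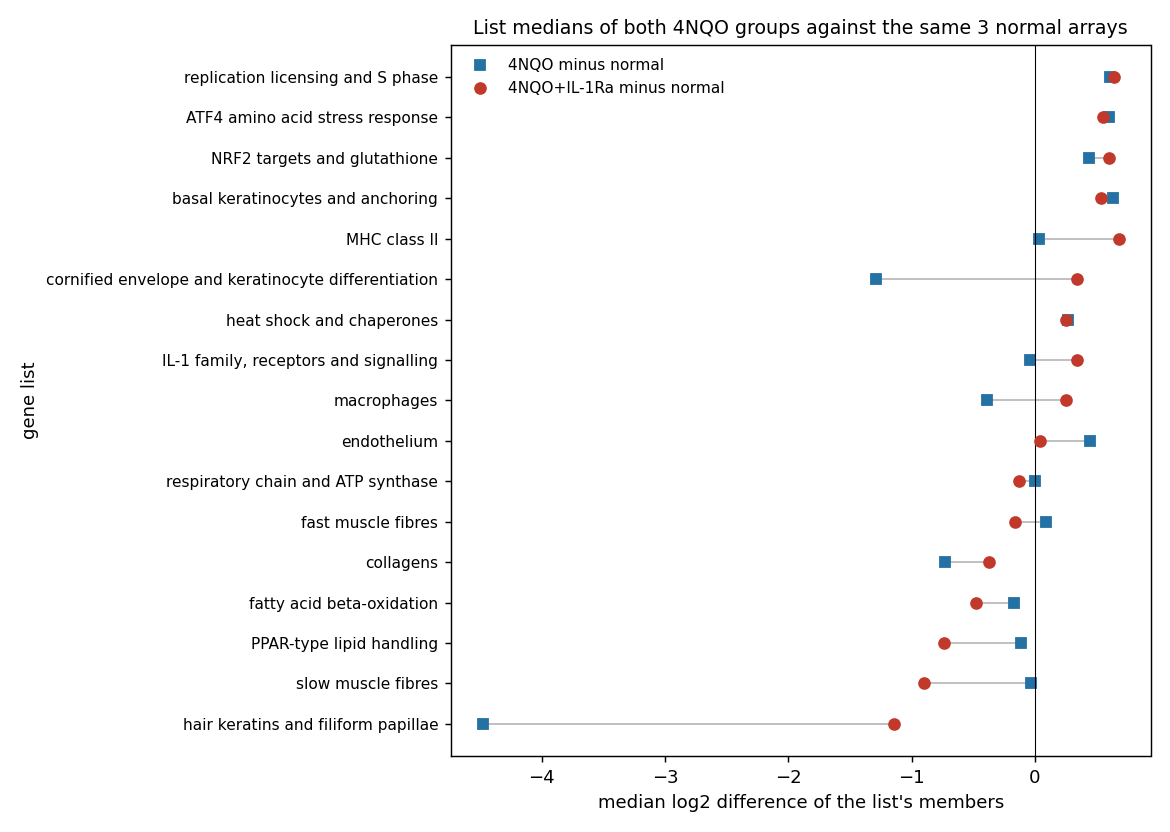
Median log2 difference of 17 gene lists (rows) for IL-1Ra minus normal (circles) and 4NQO minus normal (squares), both against the same 3 normal arrays. The marks lie close together for replication and for the amino acid stress list, while those of slow muscle fibres (-0.90 and -0.03) and of the cornified envelope (0.34 and -1.29) lie apart.

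In the epithelium, Klk6, a kallikrein protease gene of stratified epithelia, read 4.57, 5.74 and 4.70 on normal arrays and 7.74, 6.56 and 7.45 on IL-1Ra arrays. The groups were separate and the rise was 4.75-fold (adjusted p = 0.0344). On 4NQO arrays it read 4.16, 3.76 and 4.21, below every IL-1Ra array (3.20 log2 in IL-1Ra against 4NQO, adjusted p = 0.00295). Klk6 was the 1 called of 35 measured cornified envelope and differentiation genes, whose median was 0.34 log2 with 34 members above 0. Rnf227 of the same list rose by 1.06 log2 on one probe set (adjusted p = 0.0492) and differed by 0.55 on its brightest (adjusted p = 0.337).

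Small proline-rich proteins, which are crosslinked into the cornified envelope, were higher on average without passing. Sprr2d read 7.74, 6.59 and 8.77 on normal arrays and 10.71, 10.30 and 9.82 on IL-1Ra arrays, which do not overlap (2.58 log2, adjusted p = 0.0852). The corneocyte gene Kprp differed by 0.20 log2 from normal (adjusted p = 0.858). Against 4NQO, Sprr2d and Kprp were higher in the IL-1Ra group by 3.37 and 4.58 log2 (adjusted p = 0.0468 and 0.00372).

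Ripk4, a kinase gene of keratinocyte differentiation, read 8.05, 7.93 and 8.0 on normal arrays and 9.52, 9.33 and 9.28 on IL-1Ra arrays, with little spread in either group, and rose 2.6-fold (adjusted p = 0.0344). Of 19 basal keratinocyte genes limma called 0, with 9 at an unadjusted p under 0.05, where 3613 of all 14217 genes had one. The basal keratin gene Krt15 read 10.07, 11.08 and 10.85 on normal arrays and 11.88, 11.97 and 12.03 on IL-1Ra arrays, apart but with a wide normal range (adjusted p = 0.0596). The hemidesmosome integrin gene Itgb4 differed by 0.77 log2 (adjusted p = 0.0519).

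Hair keratins of the filiform papillae, the horny projections of the tongue surface, differed greatly between arrays of 1 group. Krt36 read 12.88, 10.91 and 12.62 on normal arrays, 11.11, 13.03 and 9.44 on IL-1Ra arrays and 4.50, 5.09 and 9.43 on 4NQO arrays. The IL-1Ra and normal groups overlapped, and limma called 0 of 7 measured hair keratin genes, with 0 at an unadjusted p under 0.05 (median -1.14 log2). IL-1Ra replicate 2 stood above the normal mean and replicates 1 and 3 below it, with list medians of 0.94, -1.17 and -2.80 log2.

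Within the IL-1 pathway, Myd88, the adaptor gene of IL-1 and Toll-like receptors, read 8.57, 8.58 and 8.55 on normal arrays and 9.61, 9.34 and 9.54 on IL-1Ra arrays. The normal arrays were nearly equal and the rise was 1.9-fold (adjusted p = 0.0344). Against the 4NQO arrays, which read 8.82, 8.43 and 8.82, Myd88 was higher by 0.81 log2 (adjusted p = 0.0155). It was the 1 called of 23 measured genes of the IL-1 family, receptors and signalling, whose median was 0.34 log2. Tollip, an inhibitory adaptor gene of the same receptors, rose by 1.14 and 1.11 log2 on a pair of probe sets (adjusted p = 0.044 and 0.0448) but differed by 0.38 on its brightest (adjusted p = 0.114).

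The ligand genes Il1a and Il1b differed from normal by 0.11 and 0.17 log2 (adjusted p = 0.902 and 0.837). Il1rn, the gene of the antagonist itself, read 6.99, 6.14 and 6.70 on normal arrays and 7.34, 8.06 and 7.32 on IL-1Ra arrays. These groups did not overlap but the difference of 0.96 log2 did not pass (adjusted p = 0.115), while against the 4NQO arrays of 5.56, 5.40 and 6.45 it was 1.77 log2 (adjusted p = 0.0218). The arrays measure the tissue's own Il1rn transcript, not the injected protein. Il1r2, the decoy receptor gene, differed by 0.70 log2 (adjusted p = 0.12), the inhibitory kinase gene Irak3 by 0.79 (adjusted p = 0.0629) and the ubiquitin ligase gene Traf6 by 0.44 (adjusted p = 0.0587).

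Of 29 measured genes downstream of IL-1, Icam1 alone was called. Icam1, the endothelial and epithelial adhesion gene, read 6.45, 6.96 and 6.51 on normal arrays and 7.36, 7.36 and 7.82 on IL-1Ra arrays, a rise of 1.84-fold (adjusted p = 0.0498). On the 4NQO arrays it read 7.87, 7.5 and 7.98. The chemokine gene Ccl20 differed by 1.73 log2 (adjusted p = 0.0669) and the NF-kappaB inhibitor gene Nfkbia by 0.68 (adjusted p = 0.0707). Icam1 was also the sole called member of the 28 genes the study names, whose median was 0.21 log2. Among them Myc, a transcription factor gene of growth, read 7.25, 6.80 and 7.09 on normal arrays and 7.84, 7.68 and 7.95 on IL-1Ra arrays (0.78 log2, adjusted p = 0.0637), and Ptgs2, the gene of COX2, was near background in both groups.

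Of the antigen presentation genes of MHC class II all 8 measured lay above 0 by their brightest probe sets, with a median of 0.68 log2 and 1 call. For RT1-Bb the brightest gave 1.41 log2 with overlapping groups (adjusted p = 0.208), and another gave -1.15 (adjusted p = 0.291). Ciita, the transactivator that switches class II genes on, read 4.53, 4.79 and 4.34 on normal arrays and 5.18, 5.51 and 5.66 on IL-1Ra arrays, a rise of 1.86-fold (adjusted p = 0.0407). Another probe set for Ciita gave -0.33 log2 (adjusted p = 0.209), so its direction is uncertain. The peptide loading gene RT1-DMa read 6.12, 6.17 and 5.94 against 6.80, 6.92 and 6.82, separate but not past the threshold (adjusted p = 0.0616). In the 4NQO group the list's median against normal was 0.03 log2.

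Macrophage genes had a median of 0.25 log2 over 19 measured, with a summed intensity of 4177 to 6693 on normal and 5497 to 8277 on IL-1Ra arrays. Limma called 0 of them, also without adjustment. The markers Cd68 and Cd163 differed by 0.15 and 0.20 log2 (adjusted p = 0.742 and 0.819), and the part of macrophages in the class II values was not tested. Of 24 T and NK cell genes 1 rose, Tbc1d10c, by 1.20 log2 (adjusted p = 0.0442). The list's median was 0.15 log2, with 16 genes above 0 and 8 below. The T cell receptor gene Cd3g overlapped between groups (0.33 log2, adjusted p = 0.419). Cd3e, of the same receptor, read 5.04, 5.07 and 5.01 on normal and 5.65, 5.43 and 6.11 on IL-1Ra arrays. Its groups were separate but it did not pass (0.69 log2, adjusted p = 0.0862).

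In connective tissue, Aspn, the gene of the small matrix proteoglycan asporin, read 8.93, 9.09 and 9.03 on normal arrays and 7.52, 7.85 and 7.70 on IL-1Ra arrays. The groups were tight and well apart, and the fall was 2.51-fold (adjusted p = 0.0196). Its other probe set gave -1.15 log2 (adjusted p = 0.0535), and the 4NQO arrays read 7.34, 6.92 and 7.32. Aspn was the 1 called of 42 fibroblast and matrix genes, whose median was -0.25 log2.

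Collagen genes had a median of -0.37 log2 with 15 of 18 below 0. Limma called 0, with 1 at an unadjusted p under 0.05. The type III collagen gene Col3a1 read 12.21, 12.44 and 12.23 on normal arrays and 11.53, 11.78 and 11.92 on IL-1Ra arrays. Its groups did not overlap, but it was far from passing (adjusted p = 0.57). In the 4NQO group the median of the collagens against normal was -0.73 log2. The summed intensity of the fibroblast list ran from 32158 to 37368 on normal and from 25912 to 32079 on IL-1Ra arrays.

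Endothelial genes had a median of 0.04 log2 against normal over 24 measured, the same as over all genes, and 0.45 in the 4NQO group. Limma called 0 against normal, with 2 at an unadjusted p under 0.05. Pecam1, the endothelial junction gene, read 7.76, 7.67 and 7.78 on normal, 8.19, 7.78 and 8.10 on IL-1Ra and 8.68, 8.80 and 8.15 on 4NQO arrays. The difference between IL-1Ra and normal did not pass (0.29 log2, adjusted p = 0.352). All 6 red cell genes lay below 0, with a median of -0.48 log2, 0 calls by limma and 1 at an unadjusted p under 0.05.

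Growth control and immediate early genes gave single calls. Errfi1, a feedback inhibitor of the EGF receptor, rose by 0.72 log2 (adjusted p = 0.0448), while the receptor gene Egfr differed by 0.54 (adjusted p = 0.136). Nr4a3, an immediate early nuclear receptor gene, read 4.96, 5.02 and 4.87 on normal arrays and 5.91, 7.13 and 6.90 on IL-1Ra arrays, a rise of 3.24-fold (adjusted p = 0.0495). Another probe set gave 0.74 log2 (adjusted p = 0.178), and one near background gave -0.01 (adjusted p = 0.97).

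Of 19 clock genes, Rora was called by its brightest probe set, and Csnk1d and Clock by others. Rora, a nuclear receptor gene that activates Bmal1, read 7.17, 7.04 and 7.16 on normal arrays and 7.54, 7.83 and 7.64 on IL-1Ra arrays, a rise of 0.55 log2 (adjusted p = 0.0495). Its other probe set gave -0.37 log2 (adjusted p = 0.221), so the direction of Rora is uncertain. Its promoter held none of the clock motifs searched on both strands, which were the E-box CACGTG (3 of 16 clock promoters, 5.59% of all), the D-box TTATGTAA or TTACGTAA (1 of 16, 0.932% of all) and the RORE core AGGTCA (2 of 16, 14.1% of all). Csnk1d, a kinase gene of the clock, rose by 0.75 and 0.57 log2 on a pair of probe sets (adjusted p = 0.0344 and 0.0487), and its brightest differed by 0.48 (adjusted p = 0.0524). Clock, the partner gene of Bmal1, rose by 0.57 log2 on one probe set (adjusted p = 0.044) and differed by 0.25 on its brightest (adjusted p = 0.375). Dbp, a clock output gene, differed by 0.43 log2 from normal (adjusted p = 0.434) and by -1.98 from 4NQO (adjusted p = 0.0127). The median of the list was 0.25 log2 against normal, and 0.75 in the 4NQO group.

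In 29 of the 14217 genes the IL-1Ra group differed from normal and from 4NQO in the same direction, both with an adjusted p under 0.05. Both comparisons use the same IL-1Ra arrays, so the calls are not independent. The 10 whose smaller difference was greatest were Klk6, Tnnc1, Upb1, Pla2g4b, Dnah1, Plaat5, Tnni1, Cd36, Wipi2 and Myd88. Pla2g4b, a cytosolic phospholipase gene, read 6.24, 6.27 and 6.45 on normal, 8.03, 7.64 and 7.56 on IL-1Ra and 6.4, 5.13 and 6.39 on 4NQO arrays. It rose 2.68-fold against normal (adjusted p = 0.0478) and lay 1.77 log2 above 4NQO (adjusted p = 0.0175).

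Plaat5, of a phospholipid acyltransferase family, read 5.54, 5.70 and 6.16 on normal, 6.87, 7.02 and 7.37 on IL-1Ra and 5.51, 5.09 and 5.32 on 4NQO arrays. It rose 2.44-fold against normal (adjusted p = 0.0344) and lay 1.78 log2 above 4NQO (adjusted p = 0.00268). Dnah1, an axonemal dynein gene, read 5.96, 5.43 and 5.68 on normal, 7.15, 6.92 and 6.92 on IL-1Ra and 5.23, 4.57 and 5.46 on 4NQO arrays, a rise of 2.47-fold against normal (adjusted p = 0.0366). In these 3 genes the IL-1Ra arrays stood above all 6 others, which follows largely from how the genes were chosen.

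Upb1, of pyrimidine breakdown, read 5.11, 4.02 and 4.60 on IL-1Ra arrays and was near background on normal arrays, so no fold is given (adjusted p = 0.0344). The autophagy gene Wipi2 rose by 0.84 log2 (adjusted p = 0.044) and was 1.18 log2 above 4NQO (adjusted p = 0.00657).

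The number of calls depended on how the values were scaled. After a new quantile normalization the median over all genes moved from 0.04 to 0.00 log2 and 203 probe sets were called, 46.3% of them higher, against 71.1% of the 581. After cyclic loess 97 were called, 35.1% of them higher. Called probe sets kept their direction under both scalings. A list median was taken in 14 settings, the reported one included. Those of slow fibres, lipid handling, beta-oxidation and replication kept their sign in all of them. Some settings leave the group means unchanged, namely the 6 compared arrays alone, another variance model and 1 probe set per gene. In those the sign could not turn.

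**Figure D5:**
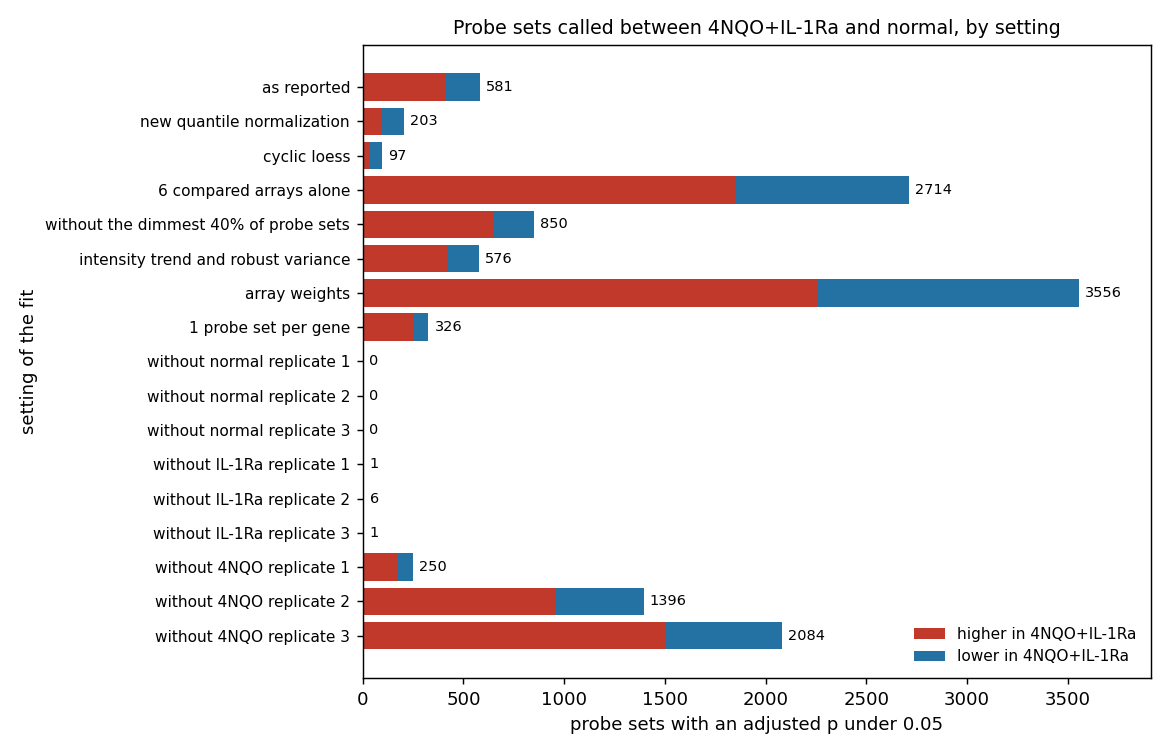
Number of probe sets called at an adjusted p under 0.05, IL-1Ra against normal, with the higher and lower calls stacked, under the reported fit and each alternative limma fit (rows). The reported 581 lies between 0 (each normal array left out) and 3556 (array weights).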

How the data were processed

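Biotin-labelled RNA of each tongue sample was read on 1 Affymetrix rat genome array. Expression Console and RMA are the tools in the submitters' processing notes. RMA subtracts background, brings the arrays to a common distribution and summarises each probe set, so a shift shared by most genes may be hidden. Tool versions were not stated. The authors deposited 1 linear intensity per probe set and array, and log2 was taken of each. The distributions were not fully alike, with upper quartiles of 7.04 to 7.09 log2 on normal and 7.17 to 7.26 on IL-1Ra arrays. Arrays correlated at 0.967 to 0.995, 0 pairs held identical values, and the number of arrays limits the precision. The labels do not say that samples came from separate animals and give no scan dates. The paper describes 9 rat tongue tissues, 3 a group, picked at random for the arrays. The p-values measure the spread between these samples.

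Of 31099 probe sets, 57 controls were left out and the remaining 31042 were tested without a filter on dim ones. Platform annotation gave 20826 a single gene symbol, 436 several and 9780 none. Each of the 14217 genes took the values of its brightest probe set, by the mean of the 9 arrays. Group means below the lower quartile of the arrays were treated as near background. Group means of the 3 treatments were fitted to all 9 arrays with limma 3.58.1 (lmFit and eBayes, 6 residual and 4.01 prior degrees of freedom) in R 4.3.3, two-sided, with Benjamini-Hochberg adjustment at 0.05 over all probe sets in each comparison. The 4NQO arrays thus contribute to the estimate of spread. Data were simulated for IL-1Ra against normal on 31042 probe sets, with 50 changes of each size and independent normal errors. Of these changes, 10% of 0.5 log2, 60% of 1 log2, 94% of 2 log2 and 100% of 3 log2 were recovered, and 6 unchanged probe sets were called. Real arrays can hold more changes and shared errors, so recovery in them may differ. RNA quality differences were tested by two-sided exact permutation.

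Genes were described in 49 lists with 997 measured members, by counts and medians and without set tests. Named genes were the 15 largest rises and falls among called genes whose groups did not overlap, the 10 with the greatest difference from both other groups, up to 6 members of each list with the lowest adjusted p, and the genes the study names. Further list members were named after their values were seen: the tissue markers, the other called members of the lists, and those set beside them. The members and lists were chosen with earlier results of these data known. Promoter letters came from RefSeq (GRCr8). Alternatives were another scaling, variance model, filter, set of arrays, and an equal-variance t-test at folds of 2 and 1.5. The methods name those folds for the arrays, and Student's test for data in general.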

Additional observations from a re-analysis of the deposited data

How the results depend on the processing

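All 581 called probe sets that an alternative limma fit tested kept their direction and an unadjusted p under 0.05 in it. They had been selected for a far lower p on these same arrays, so staying under 0.05 adds little support. Fits that change only the variance model or the 4NQO arrays leave the difference itself unchanged, so its direction could not turn there. The number past the adjusted threshold depended on the fit. It was 203 after a new quantile normalization, 97 after cyclic loess, 2714 with the 6 compared arrays alone, 3556 with array weights and 326 with 1 probe set per gene, which tests fewer probe sets. Leaving out 1 array gave 0 to 2084, with 0 for each normal array, 1, 6 and 1 for IL-1Ra replicates 1, 2 and 3, and 250, 1396 and 2084 for the 4NQO replicates. An equal-variance t-test, which the methods name for data in general and not for the arrays, passed 195 probe sets at an unadjusted p under 0.05 and a fold of 2, 1391 at a fold of 1.5, and 109 after Benjamini-Hochberg without a fold. In lists where limma called 0, that adjusted t-test called 2 respiratory chain genes, 1 proteasome gene and 0 in the others. Beyond fewer arrays or probe sets, the cause was not tested. Of 66 named called genes, 30 passed after quantile normalization, 23 after cyclic loess and 0 without any 1 normal array. Among these called genes, other probe sets turned the sign for Nr4a3 (-0.01), Ciita (-0.33), Rora (-0.37) and Atp2a2 (0.55 and 0.29 log2). The interferon list's median went from 0.30 to -0.08 log2 without IL-1Ra replicate 3. No paired analysis was possible because the labels carry no replicate numbers shared between groups. With 3 arrays a group, signal near background and differences of about 0.5 log2 are the least certain.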

Other observations

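Cholesterol synthesis genes and the LDL receptor had a median of 0.33 log2 over 21 measured, with 19 above 0. Limma called 0, with 3 at an unadjusted p under 0.05 and 0 by an equal-variance t-test after adjustment. Squalene epoxidase, Sqle, read 7.71, 7.72 and 7.69 on normal arrays and 7.79, 8.33 and 8.26 on IL-1Ra arrays, separate but with an adjusted p of 0.512. Cytosolic ribosomal protein genes had a median of 0.14 log2 over 29 measured and proteasome genes 0.12 over 30. Limma called 0 in either list, with 1 and 7 at an unadjusted p under 0.05, and the adjusted t-test called 0 and 1. Limma also called 0 in each of the lists of suprabasal keratins, S100 proteins, interferon response, TGF-beta, pericytes, Schwann cells, salivary glands, taste buds, neutrophils, B cells, dendritic cells, mast cells and serpins, with 0 to 7 members at an unadjusted p under 0.05 and 0 by the adjusted t-test. The 1 fall among 31 genes of xenobiotic metabolism was that of the dioxin receptor gene Ahr, which was near background on the IL-1Ra arrays (adjusted p = 0.0462).

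Spon1, a matrix protein gene of the spondin family, rose by 1.38 log2 (adjusted p = 0.044), and the growth regulator gene Cgref1 by 1.15 (adjusted p = 0.0354). Among falls outside the lists, the lipid kinase gene Pik3c2g fell by 2.49 log2 (adjusted p = 0.0498), with 5.44, 3.2 and 4.0 on IL-1Ra arrays and a difference of -3.10 log2 without IL-1Ra replicate 1. Smaller falls were those of the muscle gene Atp1b4, which fell by 1.96 (adjusted p = 0.0448), the acylphosphatase gene Acyp2, which fell by 1.89 (adjusted p = 0.0344) and the hydrolase gene Abhd1, which fell by 1.35 (adjusted p = 0.0344). Another probe set for Abhd1 gave -0.60 log2 (adjusted p = 0.161).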
